A study of Rattus norvegicus with 9 samples.

Results

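The genes described here are 7 Sox transcription factors, Sox4, Sox5, Sox7, Sox9, Sox11, Sox17 and Sox18, taken by gene symbol from a table of 37203 genes as the Sox factors outside the Schwann cell lineage. All 7 were found in the table, and all 7 were among the 15482 genes that passed the filter on low counts. The libraries were made from superior mesenteric artery of 8-week-old Sprague-Dawley rats and comprised 3 normal arteries, 3 arteries taken after ischemia of 1 h and 3 taken after ischemia of 4 h. Ischemia was produced by bleeding anaesthetized rats through a catheter in the femoral artery. Whether the normal rats had the anaesthesia and the catheter is not given in the sources used here, so the effects of these steps and of blood loss cannot be told apart. No transgene or knockout was used in these rats. The series' design gives 3 rats per group, while the methods speak of 3 individuals for 9 arrays, and the sample labels name no animal, so p-values measure the spread between these samples. The list was chosen from measured values of these same libraries, with Sox4 named first, and which comparison served is not recorded, so every comparison is treated as used. The differences of the 7 genes between groups are therefore given as a description of these libraries, and nothing is supported with them.

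Sox factors are transcription factors that bind and bend DNA through a domain called the HMG box, and they act together with partner factors that differ between cell types. Sox7, Sox17 and Sox18 form the SoxF group, which is known from the endothelium, where its members direct arterial identity and, through Sox18 and its target Prox1, the start of lymphatic vessels. Sox4 and Sox11 belong with Sox12 to the SoxC group of progenitor cells and young neurons, Sox5 belongs with Sox6 and Sox13 to the SoxD group, and Sox9 is the SoxE factor of cartilage.

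Sox18 and Sox4 were the members lower in every ischemic artery than in every normal artery. Lower values without overlap were also seen for 13.5% of all genes tested at 1 h and for 10.8% at 4 h. Neither gene was called in the main edgeR test described below. Sox18 was 7.09-fold lower at 1 h and 10.1-fold lower at 4 h in the fit, and Sox4 was 2.45-fold lower at 1 h and 2.69-fold lower at 4 h. Sox17, of the same SoxF group as Sox18, had overlapping groups throughout. Sox5 was level across the 3 groups, and Sox9 and Sox11 had few reads.

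Total counts ran from 13114273 to 15504240 per library, so that a level of 1 CPM, a count scaled to the size of the library, stood for 12.1 to 17.9 reads after TMM scaling (scaling by the trimmed mean of M-values). Smooth muscle markers (8 of 8 tested) summed to 10412 to 45715 CPM in normal arteries, 11929.9 to 43642 CPM at 1 h and 22756 to 65403 CPM at 4 h, so the defining markers of an arterial wall were present in all libraries. Endothelial markers (10 of 10 tested) summed to 736 to 1694, 660.1 to 1065 and 555 to 931 CPM in the same order. Nerve RNA was uneven. The 13 sympathetic neuron markers summed to 35.8 to 522 CPM in normal arteries, 802 to 7133 CPM at 1 h and 45.7 to 7049 CPM at 4 h, with the highest sums in 1 h replicates 1 and 3 and 4 h replicate 3. The 10 Schwann cell markers summed to 142 to 4381, 1289 to 2313 and 385 to 2107 CPM. Lymphatic endothelial markers (5 genes) summed to 242 to 355, 197 to 320.1 and 273 to 659.7 CPM, fibroblast markers (6) to 1427 to 2118, 943 to 1474 and 1379 to 1997 CPM, and adipocyte markers (6) to 373 to 2348, 960 to 2127 and 354 to 1073 CPM. Macrophage markers reached 63.9 CPM, exocrine pancreas markers 109 CPM, gut epithelium markers 152 CPM, lymphocyte markers 28.2 CPM and mesothelial markers 4.24 CPM in their highest library. Normal replicate 1 had the lowest smooth muscle sum of all libraries. It also had the highest endothelial, Schwann cell, adipocyte, macrophage and gut epithelium sums. Of the normal arteries it had the highest Sox18, Sox4, Sox17 and Sox7. In bulk tissue, fewer cells of a type and less RNA per cell cannot be told apart.

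**Figure D1:**
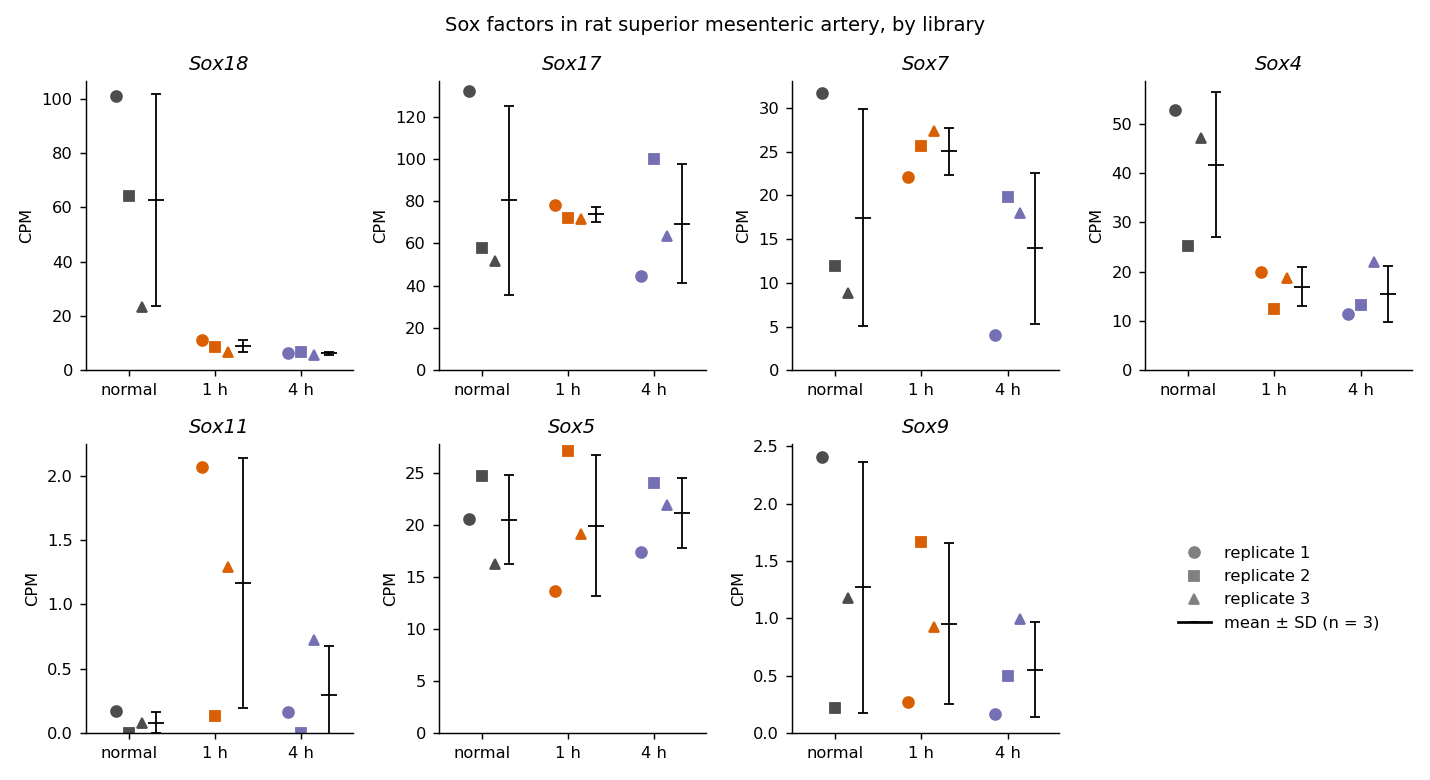
Level of each Sox factor in CPM (linear axis from 0, a separate scale for each gene) in normal, 1 h and 4 h arteries, with 1 point per library and bars for mean ± SD (n = 3, lower ends stopped at 0). Sox18 stood at 23.2 to 101 CPM in normal arteries and at 5.55 to 11.3 CPM in ischemic ones, and Sox4 at 25.1 to 52.8 CPM against 11.3 to 21.9 CPM.

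Sox18, the SoxF factor best known from lymphatic and blood vessel endothelium, had 101, 64 and 23.2 CPM in normal replicates 1, 2 and 3. The 1 h arteries had 11.3, 8.42 and 6.82 CPM, and the 4 h arteries had 6.45, 6.55 and 5.55 CPM. The lowest normal artery was above the highest ischemic artery, the normal arteries differed widely among themselves, and the 4 h arteries were close together and all below the 1 h arteries. The group means were 62.8 ± 39 CPM (SD, n = 3) in normal arteries, 8.85 ± 2.27 CPM at 1 h and 6.18 ± 0.553 CPM at 4 h. These rested on 314 to 1806 reads in normal arteries and on 78 to 169 reads in ischemic ones. The log2 fold change against normal was −2.83 (SE 0.49) at 1 h and −3.34 (SE 0.50) at 4 h. Of the 15482 genes tested, 12 had a more negative change at 1 h and 17 at 4 h. Between 1 h and 4 h the log2 fold change was −0.52 (SE 0.47), about the size of its error.

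Sox4, a SoxC factor of progenitor cells and of the developing heart and its outflow tract, had 52.8, 25.1 and 47.1 CPM in the normal arteries. It had 19.9, 12.4 and 18.6 CPM at 1 h and 11.3, 13.2 and 21.9 CPM at 4 h. Every ischemic artery was below every normal artery, with normal replicate 2 and 4 h replicate 3 the nearest to each other, and the 1 h and 4 h arteries overlapped. Among the ischemic arteries Sox4 was highest in the 3 with the highest sympathetic neuron sums, 1 h replicates 1 and 3 and 4 h replicate 3. In every group, normal arteries included, the library with the lowest Sox4 also had the lowest sympathetic neuron sum. Over all 9 libraries its Pearson correlation with the mean of the sympathetic neuron markers was 0.14. That value mixes differences between the groups with those inside them, so it does not describe the libraries of 1 group. Its highest correlation with a marker list was 0.75, for the macrophage markers. The means were 41.7 ± 14.6 CPM in normal arteries, 17.0 ± 4 CPM at 1 h and 15.5 ± 5.62 CPM at 4 h. Its log2 fold change was −1.29 (SE 0.37) at 1 h and −1.43 (SE 0.37) at 4 h against normal, and −0.14 (SE 0.36) between the ischemic times. A more negative change was seen for 2.37% of all genes tested at 1 h and for 2.89% at 4 h, against 0.0775% and 0.11% for Sox18.

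Sox17, which directs arterial identity in the endothelium, had 132, 57.6 and 51.5 CPM in normal arteries, 78.0, 71.8 and 71.5 CPM at 1 h and 44.6, 100 and 63.3 CPM at 4 h. Normal replicate 1 was the highest library and 4 h replicate 1 the lowest, and the groups overlapped in each comparison. Its log2 fold change was −0.12 (SE 0.40) at 1 h and −0.21 (SE 0.41) at 4 h against normal. Without normal replicate 1 these became 0.44 and 0.34, so that library decided the sign.

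Sox7, the remaining SoxF factor of endothelial cells, had 31.7, 11.9 and 8.79 CPM in normal arteries, 22.1, 25.6 and 27.4 CPM at 1 h and 4.05, 19.8 and 18.0 CPM at 4 h. The 1 h arteries were close together and lay within the normal range, while every 4 h artery was below every 1 h artery. Fitted log2 fold changes were 0.52 (SE 0.62) at 1 h and −0.32 (SE 0.63) at 4 h against normal, and −0.84 (SE 0.63) between 4 h and 1 h. Without normal replicate 1 the first became 1.27, and the second turned to 0.43. It turned to 0.091 without 4 h replicate 1.

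Sox5, a SoxD factor that works beside Sox9 in cartilage and lacks an activation domain of its own, had 20.6, 24.7 and 16.2 CPM in normal arteries, 13.6, 27.1 and 19.1 CPM at 1 h and 17.4, 24.0 and 21.9 CPM at 4 h. The 3 groups covered much the same range, with the highest and the lowest library both at 1 h. The log2 fold changes were −0.04, 0.04 and 0.08 for 1 h against normal, 4 h against normal and 4 h against 1 h, each with an SE of 0.29.

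Sox9 had 43, 3 and 16 reads in normal arteries, 4, 25 and 15 reads at 1 h and 2, 6 and 15 reads at 4 h, with means of 1.27 ± 1.1, 0.953 ± 0.702 and 0.551 ± 0.415 CPM. The spread within normal arteries was larger than any difference between group means, and all 3 groups overlapped. The log2 fold change was −0.42 (SE 0.96) at 1 h and −1.18 (SE 0.99) at 4 h, the first smaller than its error and the second about 1 error from 0. The value at 1 h turned to 0.44 without normal replicate 1 and to 0.022 without 1 h replicate 1, and the value at 4 h lay between −1.92 and −0.32 when single libraries were left out.

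Sox11, the SoxC factor of young sympathetic and other neurons, had 3, 0 and 1 reads in normal arteries, 31, 2 and 21 reads at 1 h and 2, 0 and 11 reads at 4 h. A count of 0 allows up to 3 reads, which was 0.219 CPM in normal replicate 2 and 0.249 CPM in 4 h replicate 2, for counting error only. Most of the reads were in 1 h replicates 1 and 3 and 4 h replicate 3, at 2.07, 1.29 and 0.726 CPM. Sox11 passed the filter on low counts only through these libraries, as every other library had at most 3 reads. The neuronal gene Dbh, which encodes the last enzyme of noradrenaline synthesis, had 1854, 1866 and 2041 CPM in those libraries, 226 CPM in 1 h replicate 2 and at most 116 CPM in the other 5. Over the 9 libraries Sox11 and the mean of the sympathetic neuron markers had a Pearson correlation of 0.87, a description of libraries that share 3 conditions. With the adipocyte marker mean Sox11 had 0.78. The log2 fold change of Sox11 against normal was 3.65 (SE 1.44) at 1 h, with overlapping groups, and 1.75 (SE 1.47) at 4 h. The value at 4 h was −0.037 without 4 h replicate 3. The part of the uneven nerve RNA in these values was not tested.

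**Figure D2:**
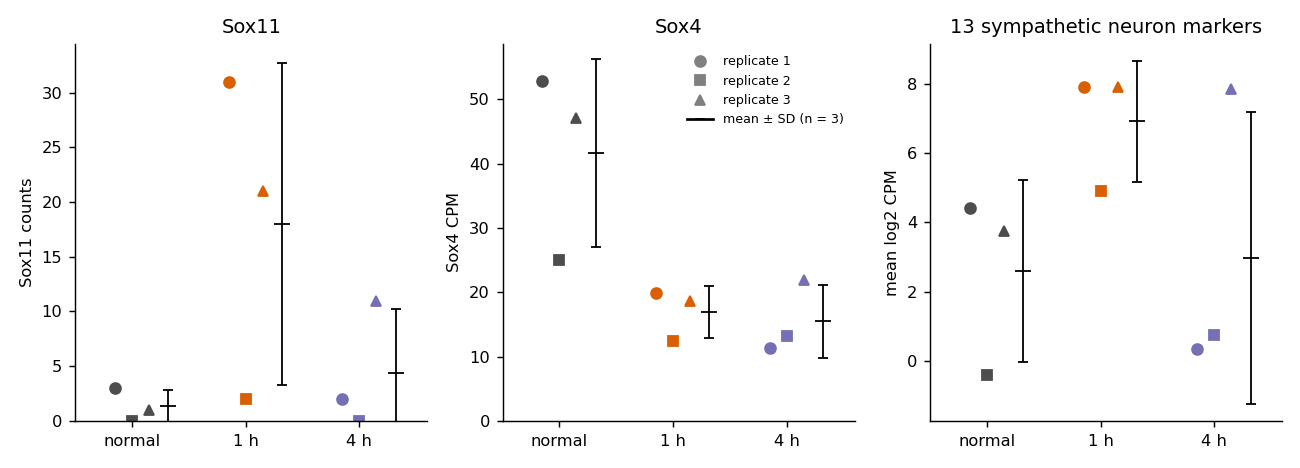
Reads of Sox11 (left), CPM of Sox4 (centre) and mean log2 CPM of 13 sympathetic neuron markers (right) per library, with bars for mean ± SD (n = 3, read and CPM bars stopped at 0). The 3 libraries with 11 to 31 Sox11 reads were also the 3 with the highest neuron markers, and Sox4 was 18.6 to 21.9 CPM in those 3 and 11.3 to 13.2 CPM in the other ischemic arteries.

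In edgeR's quasi-likelihood test with Benjamini-Hochberg adjustment over all 15482 genes, the calls needed both an adjusted p under 0.05 and more than a 1.5-fold change. By this rule 0 of the 7 Sox factors were called at 1 h against normal, where 0.0581% of all genes were called, and 0 at 4 h against normal, where 0.0904% were. Likewise 0 were called at 4 h against 1 h (0% of all genes) and 0 in the test of the 3 groups together (0.0388% of all genes). The smallest adjusted p values in edgeR belonged to Sox18, at 0.121 at 1 h and 0.0701 at 4 h. Sox4 had an adjusted p of 0.224 at 1 h and 0.178 at 4 h in edgeR.

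At an unadjusted p under 0.05, edgeR counted 3 Sox factors at 1 h (Sox4 and Sox18 lower, Sox11 higher), beside 16.7% of all genes. Sox11 passed the filter on low counts only through ischemic libraries where it was high, so nothing is read from its p. At 4 h edgeR counted 2 (Sox4 and Sox18, beside 12.4% of all genes). It counted 0 at 4 h against 1 h (beside 2.58%) and 2 in the test of the 3 groups (beside 11.4%). DESeq2 called 2 Sox factors, Sox4 and Sox18, at 1 h, at 4 h and over the 3 groups, where it called 4.12%, 3.35% and 4.17% of all genes. It called 0 at 4 h against 1 h. The calls of both genes thus differed between tools, and they also differed between edgeR fits with other terms or libraries, given with the nerve score at the end. The sign of both against normal was kept in 64 of 64 values, from 16 alternative fits for each gene and comparison. Their groups did not overlap and the genes were chosen from these libraries, so a kept sign was nearly certain and supports nothing.

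Groups that did not overlap, with the ischemic arteries lower, were seen for 2 of the 7 Sox factors at 1 h (13.5% of all genes tested) and for 2 at 4 h (10.8% of all genes), Sox4 and Sox18 both times. The 4 h arteries lay below the 1 h arteries without overlap for 2 members, Sox7 and Sox18 (3.04% of all genes). Because the members were chosen with these comparisons known, nothing is read from the counts. The median log2 fold change of the 7 was −0.12 at 1 h, −0.32 at 4 h and −0.52 between the ischemic times, beside −0.01, 0.03 and −0.04 for all genes tested.

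**Figure D3:**
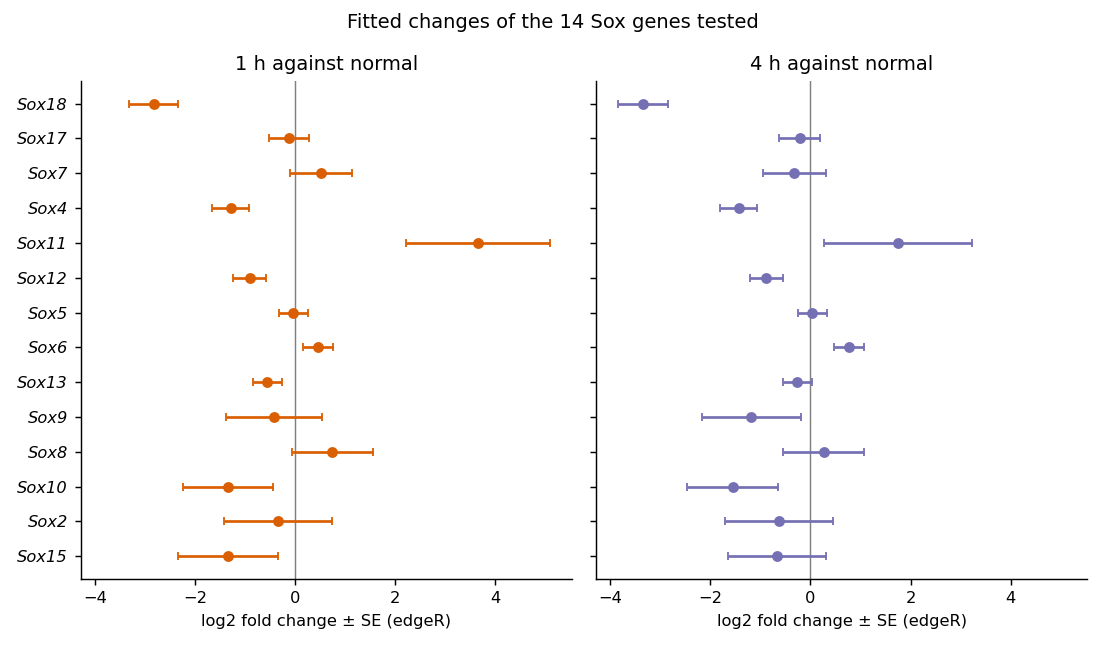
Log2 fold change with its SE from the edgeR fit for the 14 Sox genes tested, at 1 h (left) and 4 h (right) against normal, on a linear axis of log2 values with a line at 0. Sox18 lies farthest to the left in both panels (−2.83 and −3.34), Sox4 (−1.29 and −1.43, SE 0.37), Sox10 (−1.35 and −1.55, SE 0.90 and 0.91) and, at 1 h, Sox15 (−1.35, SE 1.00) come next, and Sox11 lies to the right with an SE of 1.44 at 1 h and 1.47 at 4 h.

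The contrast within the SoxF group also appeared in ratios taken inside each library, which no scaling between libraries can move. Reads of Sox18 per read of Sox17 were 0.769, 1.11 and 0.451 in normal arteries, 0.145, 0.117 and 0.0954 at 1 h and 0.145, 0.0655 and 0.0877 at 4 h. The lowest normal ratio was above every ischemic ratio, and the ischemic times overlapped. Reads of Sox7 per read of Sox17 were 0.241, 0.207 and 0.171 in normal arteries, 0.284, 0.357 and 0.383 at 1 h and 0.0909, 0.198 and 0.285 at 4 h. This ratio was higher in all 1 h arteries than in all normal arteries, and the 4 h arteries spread over both. The ratios use the same reads that chose the genes and carry no test. The SoxF genes share similar HMG box sequence, and how reads that match more than 1 gene were counted is not given in the sources used here.

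Set against the mean log2 CPM of the 10 endothelial markers, Sox18 was −0.89 ± 0.57 in normal arteries (SD, n = 3, range −1.55 to −0.55), −3.11 ± 0.60 at 1 h (range −3.49 to −2.41) and −3.45 ± 0.49 at 4 h (range −3.82 to −2.90). The normal and ischemic ranges did not overlap. Sox17 on the same scale was −0.44 ± 0.25, −0.04 ± 0.39 and −0.07 ± 0.32, with overlapping groups. Sox7 was −2.72 ± 0.41, −1.59 ± 0.27 and −2.58 ± 0.84, and its 1 h values lay above all normal values. Over the 9 libraries the Pearson correlation of Sox7 with the endothelial marker mean was 0.66. With the adipocyte, gut epithelium and Schwann cell marker means it was 0.78, 0.77 and 0.76. Sox17 likewise had 0.74 with the endothelial, 0.78 with the gut epithelium and 0.74 with the Schwann cell marker mean. The endothelial markers themselves had a median log2 fold change of −0.50 at 1 h and −0.59 at 4 h. In edgeR 3 of 10 were lower at an unadjusted p under 0.05 each time, and 0 were called. Of all 15482 genes tested, 1342 were lower at that p at 1 h and 1138 at 4 h. In these libraries Sox18 was lower by more than the endothelial marker mean, and Sox17 was not. These values use the same reads that chose the genes and carry no test. The part of endothelial content in the Sox18 difference was not tested.

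**Figure D4:**
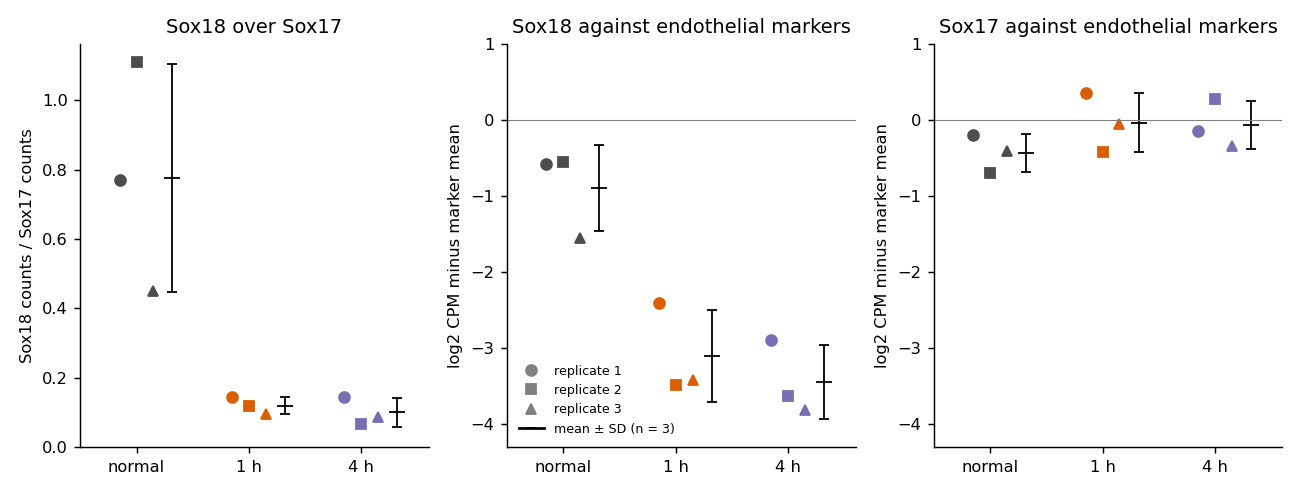
Reads of Sox18 per read of Sox17 (left), and log2 CPM of Sox18 (centre) and Sox17 (right) minus the mean log2 CPM of 10 endothelial markers, per library, with bars for mean ± SD (n = 3). Normal arteries had 0.451 to 1.11 Sox18 reads per Sox17 read and ischemic arteries 0.0655 to 0.145, while Sox17 stayed within −0.70 to 0.36 of the endothelial mean in all 9 libraries.

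Across the 9 libraries Sox4 and Sox18 had a Pearson correlation of 0.77 in log2 CPM, and Sox7 and Sox17 one of 0.81. Sox17 and Sox18 had 0.32, and Sox7 and Sox18 had 0.12. The libraries share conditions and uneven tissue content, so these are descriptions only. Among the 10440 other genes (10441 for Sox9 and Sox11) averaging at least 5 CPM, the genes most like Sox18 were Ago1 (0.975), Efna1 (0.963) and Cnnm3 (0.962). Those most like Sox4 were Tmem218 (0.965), Trim8 (0.946) and Mex3d (0.945), and those most like Sox17 were Rbp7 (0.975), Gpihbp1 (0.967), which carries lipoprotein lipase across capillary endothelium, and Papd5 (0.947). Sox7 was closest to Gstm1 (0.968), Gca (0.966) and Gbp2 (0.964), and Sox5 to Nup160 (0.944), Hipk1 (0.939) and Rsbn1 (0.937). Sox9 was closest to Tec (0.934), Celsr1 (0.93) and Arhgef26 (0.928), and Sox11 to Nsdhl, Rap1gds1 and Nme1 (each 0.977). By Spearman correlation 2 of the 3 genes stayed nearest for Sox17, 1 for Sox11 and 0 for each of the others.

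The lists of partners, relatives and targets that were examined beside the members held 51 genes, of which 48 were in the table and 42 were tested. By edgeR 0 of these were called in any comparison. At an unadjusted p under 0.05 edgeR counted 9 of the 42 at 1 h (3 higher, 6 lower), beside 16.7% of all genes, and 9 at 4 h (2 higher, 7 lower), beside 12.4%. It counted 0 between the ischemic times (2.58% of all genes) and 6 over the 3 groups (11.4%). DESeq2 called 3 genes at 1 h (Vcam1, Map2 and Gja5, beside 4.12% of all genes), 3 at 4 h (Vcam1, Egfl7 and Prox1, beside 3.35%), 4 over the 3 groups (Vcam1, Egfl7, Prox1 and Gja5, beside 4.17%) and 0 between the ischemic times.

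Of the SoxF partners and endothelial targets, 21 of 22 were tested, and 15 had a fitted change below 0 at 1 h and 16 at 4 h, beside 7827 and 7385 of all 15482 genes. Their median log2 fold change was −0.24 at 1 h and −0.34 at 4 h, beside −0.01 and 0.03 for all genes. Ischemic arteries were lower without overlap for 5 of the 21 both times, beside 13.5% of all genes at 1 h and 10.8% at 4 h. They were higher without overlap for 1 of the 21 both times, beside 12.8% and 7.93%. The 4 h arteries lay below the 1 h arteries without overlap for 5 of the 21, beside 3.04% of all genes. These were Kdr, Flt1, Cdh5, Dll4 and Ets1, so this order was not particular to Sox7 and Sox18. None of the 21 lay above, beside 495 of all 15482 genes, and the smallest adjusted p of the list in edgeR was 0.856. Several genes of this list (Tie1, Tek, Kdr, Cldn5, Cdh5, Egfl7 and Erg) also served as endothelial markers.

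Prox1, the lymphatic factor that Sox18 switches on in the embryo, had 15.7, 11.5 and 15.7 CPM in normal arteries, 6.35, 9.02 and 10.8 CPM at 1 h and 5.54, 4.97 and 7.79 CPM at 4 h. All ischemic arteries were below all normal arteries, and the log2 fold change was −0.72 (SE 0.29) at 1 h and −1.23 (SE 0.29) at 4 h. No other lymphatic marker was lower without overlap at both times. Lyve1, a hyaluronan receptor, had log2 fold changes of 1.04 (SE 0.44, overlapping groups) at 1 h and 1.23 (SE 0.44, every 4 h artery above every normal one) at 4 h, and was not called by edgeR. Flt4 had −0.24 and −0.15 (SE 0.32 each), and Pdpn 0.65 and 0.37 (SE 0.71 each). Ccl21 had −0.81 at 1 h, with every 1 h artery below every normal one, and 0.34 at 4 h with overlapping groups (SE 0.55 each). Gja5, which encodes the arterial gap junction protein connexin 40, had 18.5, 41.0 and 22.9 CPM in normal arteries, 8.9, 10.5 and 5.78 CPM at 1 h and 13.1, 10.6 and 4.62 CPM at 4 h. Its groups did not overlap either, and the log2 fold change was −1.71 (SE 0.46) and −1.54 (SE 0.46). Egfl7, a secreted endothelial protein, went from 62.7 to 142 CPM in normal arteries to 36.5 to 56.5 CPM at 1 h and 36.0 to 51.7 CPM at 4 h, again without overlap, with log2 fold changes of −1.11 and −1.22 (SE 0.33 each).

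Vcam1, the adhesion molecule that captures leukocytes on activated endothelium, lay in the other direction. It had 22.8, 37.9 and 29.0 CPM in normal arteries, 74.5, 388 and 367 CPM at 1 h and 56.1, 108 and 325 CPM at 4 h. Every ischemic artery was above every normal artery, with a wide spread among the ischemic ones, and the log2 fold change was 3.21 (SE 0.80) at 1 h and 2.45 (SE 0.77) at 4 h. In edgeR its adjusted p was 0.21 and 0.254. Between 4 h and 1 h, the largest differences of the list were in Gja4 (1.02, SE 0.63), which encodes another arterial connexin, Mef2c (0.77, SE 0.41), a partner of Sox18, and Vcam1 (−0.76, SE 0.73).

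**Figure D5:**
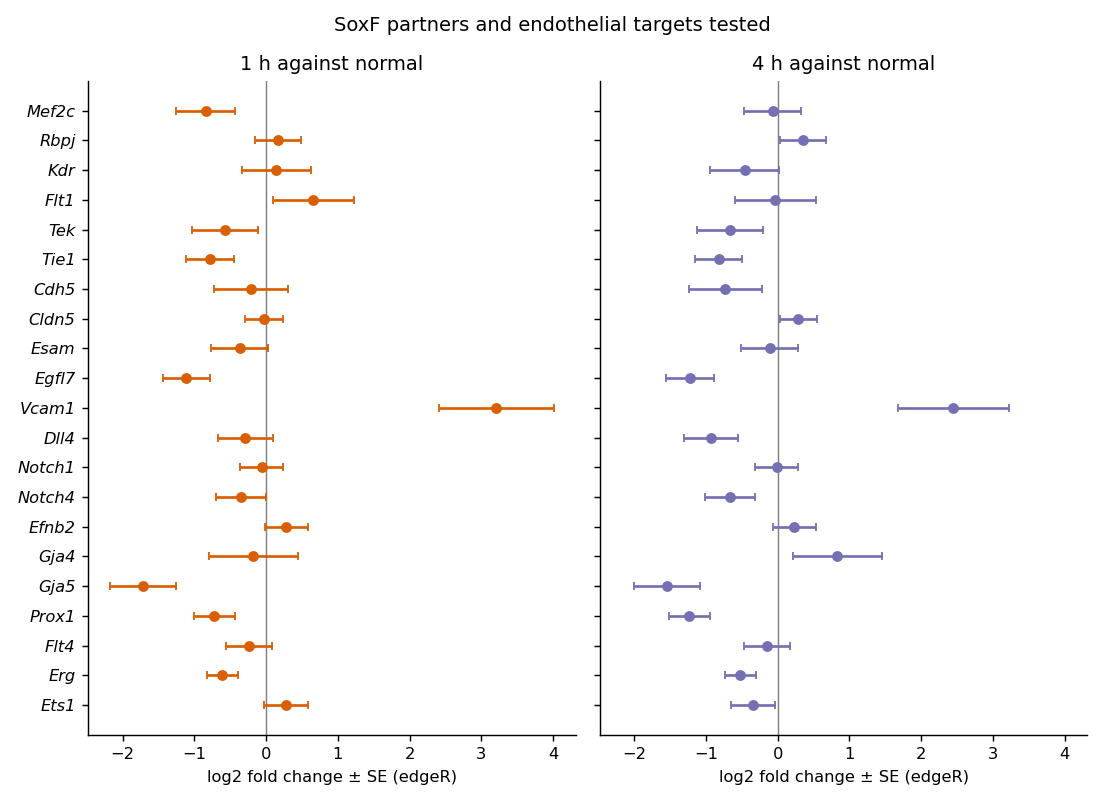
Log2 fold change with its SE from the edgeR fit for the 21 SoxF partners and endothelial targets tested, at 1 h (left) and 4 h (right) against normal, with a line at 0. Vcam1 is the point farthest to the right (3.21 and 2.45), Gja5 the point farthest to the left (−1.71 and −1.54), and most others lie within 1 log2 unit of 0.

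The SoxC targets examined were neuronal cytoskeleton and progenitor genes. Map2, a microtubule protein of neurons, had 38.4, 12.5 and 28.5 CPM in normal arteries, 382, 76.3 and 418 CPM at 1 h and 22.6, 22.4 and 486 CPM at 4 h. Tubb3, a neuronal tubulin, had 65.3, 0.803 and 36.1 CPM, then 1009.7, 106 and 1018 CPM, then 2.07, 6.14 and 997 CPM. Both were high in the 3 libraries that had most neuron markers, 1 h replicates 1 and 3 and 4 h replicate 3. The log2 fold change of Map2 was 3.46 (SE 1.30) at 1 h and 2.74 (SE 1.26) at 4 h. That of Tubb3 was 4.38 (SE 2.30) and 3.30 (SE 2.19), and Ezh2, a histone methyltransferase of dividing progenitors, had −0.15 (SE 0.39) and −0.40 (SE 0.40). The median of the 5 genes was 3.46 at 1 h and 2.74 at 4 h, which is the value of Map2 itself.

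Of the cartilage genes controlled by Sox9 with Sox5, 11 of 12 were in the table and 9 were tested, with a median log2 fold change of 0.19 at 1 h and 0.41 at 4 h and 0 at an unadjusted p under 0.05 or called by DESeq2. Col11a1, a fibrillar collagen chain, had 132 ± 70.6 CPM in normal arteries, 134 ± 29.6 CPM at 1 h and 187 ± 44.8 CPM at 4 h. Col11a2, its partner chain, had 17.6 ± 9.7, 21.3 ± 5.59 and 26.4 ± 9.5 CPM. Comp, a cartilage matrix protein, had 4.77 ± 1.97, 3.92 ± 2.62 and 6.36 ± 5.6 CPM, and Col9a2 had 11.6 ± 15.5, 14.4 ± 3.52 and 10.8 ± 6.7 CPM. For these 4 genes the group means differed by no more than the largest SD.

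Of the other Sox genes, 10 were in the table and 7 were tested, with a median log2 fold change of −0.56 at 1 h and −0.62 at 4 h. Sox12, the SoxC relative of Sox4 and Sox11, had 7.89, 7.74 and 8.94 CPM in normal arteries, 5.89, 3.48 and 3.69 CPM at 1 h and 2.98, 5.39 and 4.95 CPM at 4 h. As with Sox4, every ischemic artery was below every normal artery, with log2 fold changes of −0.91 and −0.88 (SE 0.33 each). Sox6, the SoxD relative of Sox5, had 30.5, 40.1 and 26.9 CPM in normal arteries, 32.4, 66.8 and 34.0 CPM at 1 h and 56.7, 55.1 and 54.2 CPM at 4 h. Its 4 h arteries were all above the normal ones (log2 fold change 0.77, SE 0.30), and its 1 h arteries overlapped both groups (0.45, SE 0.30).

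Sox13, the remaining SoxD gene, had 65.4 ± 22.8, 44.3 ± 9.89 and 54.6 ± 5.09 CPM in normal, 1 h and 4 h arteries. Sox10, the factor that defines the Schwann lineage, had 15.3 to 303 CPM in normal arteries, 41.0 to 59.8 CPM at 1 h and 25.4 to 71.0 CPM at 4 h, so its ischemic values lay inside the normal range. Sox2 had 1.24 to 46.9, 10.9 to 16.8 and 2.98 to 18.0 CPM, with the same wide normal spread. Sox8 averaged 2.13, 3.58 and 2.57 CPM and Sox15 averaged 1.16, 0.457 and 0.75 CPM. Sox14 and Sox21 had no read in any library, Sox30 did not pass the filter, and Sox1 and Sox3 were not found in the table by symbol.

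Since nerve RNA differed between the libraries, the fit was repeated with a nerve score, the mean log2 CPM of 23 sympathetic neuron and Schwann markers, as a covariate. The score was 1.29 to 6.03 in normal arteries, 5.81 to 7.53 at 1 h and 2.22 to 7.44 at 4 h. With it the log2 fold change of Sox4 was −1.87 (SE 0.20) at 1 h and −1.50 (SE 0.17) at 4 h, both called in edgeR (adjusted p 0.0255 and 0.0162). Sox18 had −2.88 (SE 0.55, not called) at 1 h and was called at 4 h (−3.34, SE 0.51, adjusted p 0.0385 in edgeR), so that 1 of 7 Sox factors was called at 1 h, where this fit called 0.11% of all genes, and 2 at 4 h, where it called 0.704%. The part of nerve RNA in the differences of Sox4 and Sox18 was not tested beyond these values. Without normal replicate 3, the lowest normal library for Sox18, the Sox18 value at 4 h was −3.74 (adjusted p 0.0358 in edgeR, 0.0251% of all genes called). That was the lowest adjusted p when single libraries were left out. In these edgeR fits the adjusted p of Sox18 reached 0.232 at 4 h and ran from 0.0773 to 0.489 at 1 h.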

How the data were processed

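RNA from 9 rat superior mesenteric arteries was sequenced by the authors, who deposited raw read counts per gene for each library. Per the labels the reads were aligned with HISAT2, with no version given. The counting tool, genome build, annotation and strand setting are not given in the sources used here, so no coordinates are printed. The paper's methods describe arrays, and the deposited values are whole-number counts. The group and number of each library came from its title.

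Here genes were filtered with filterByExpr, scaled by TMM and fitted over all 9 libraries with edgeR 4.0.16 (quasi-likelihood F-test, group as the only term) in R 4.3.3. SE is the log2 fold change divided by the square root of F, and log2 CPM used a prior count of 2. DESeq2 1.42.0, 2 other scalings, no filter, a replicate block, a nerve covariate, fits of the 2 groups compared and leaving out each library were alternatives. The code was checked on simulated counts. Named were all 7 Sox factors, the other Sox genes, every partner or target called, and the 3 with the largest change per list and comparison at 5 CPM or more. For each Sox factor the 3 genes with the highest correlation were named too. Most cell type markers were given only as sums over their list, and only some of these genes were named. The members and lists were chosen with earlier results of these data known. No 2 libraries agreed within sampling noise (lowest chi-square per degree of freedom 29.9). Intervals and floors cover counting error only.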

Additional observations from a re-analysis of the deposited data

How the results depend on the processing

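The 3 libraries per group, with a common biological coefficient of variation of 51.6%, limit the precision, and Sox9 and Sox11 rest on few reads. Of 334 values of the 7 Sox factors from alternative fits, counted by gene and comparison, 304 kept sign and side of the threshold, 8 passed the threshold and 22 reversed. Sox4 and Sox18 against normal kept their sign in 64 of 64 such values, which groups without overlap made nearly certain. Leaving out single libraries gave −3.22 to −2.30 (1 h) and −3.74 to −2.82 (4 h) for Sox18, and −1.57 to −1.09 and −1.76 to −1.22 for Sox4.

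Sox factors called, 0 in the fit reported, numbered 1 at 1 h, 2 at 4 h and 1 over the 3 groups with the nerve covariate, and 2 each with DESeq2. At 4 h they ranged from 0 to 1 when single libraries were left out (1 without normal replicate 3). Partners and targets called, 0 in the fit reported, numbered 3 at 1 h, 3 at 4 h and 4 over the 3 groups with DESeq2, and 1 at 4 h (Gja5) with the nerve covariate. The causes were not tested.

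Reversed values with the nerve covariate were 0.37 for Sox4 between 4 h and 1 h, 0.082 for Sox5 at 1 h, −0.011 for Sox5 between 4 h and 1 h, −0.014 for Sox7 at 1 h and 0.19 for Sox17 between 4 h and 1 h. Scaling by library size alone gave Sox5 −0.14 at 4 h and −0.10 between 4 h and 1 h, where the medians over all genes became −0.149 and −0.239. Leaving out single libraries gave −0.47 to 0.024 for Sox4 between 4 h and 1 h. For Sox5 it gave −0.33 to 0.18 at 1 h, −0.10 to 0.22 at 4 h and −0.13 to 0.37 between the times. Sox7 at 4 h ran from −0.66 to 0.43, Sox9 at 1 h from −1.09 to 0.44 and Sox11 at 4 h from −0.037 to 2.79. Sox17 ran from −0.36 to 0.44 at 1 h, −0.57 to 0.34 at 4 h and −0.45 to 0.12 between the times.

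The correlation of deviations between same-numbered libraries of different groups ran from −0.651 to 0.66 over 9 pairs, and 4 were above 0.1. These were the replicate 2 pairs (0.417, 0.282 and 0.623) and 1 h with 4 h replicate 3 (0.66). As the other pairs did not share this and the labels name no animal, the numbers were not taken as pairs. Whether the replicate 2 libraries share a factor was not tested. With a replicate block, 0 Sox factors were called, and 7 genes were called at 1 h, 7 at 4 h, 0 between the times and 0 over the 3 groups among all genes.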
